A study of Rattus norvegicus with 12 samples.

Results

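Transcripts of 9 genes of the complement system were followed in the dorsal striatum of rats with a dopamine lesion, on 12 single-colour oligonucleotide arrays. The genes were C1s, C1qa, C1qb, C1qc, C2, C3, Cfb, Serping1 and Cd59, out of 35608 genes on the array. This set was chosen by function after the signal of C1s had been seen to be higher in L-DOPA treated rats on these same arrays. The comparisons of the L-DOPA groups with the 6-OHDA group are therefore given for all 9 genes as values, with no test. A gene was found by its name in the scanner files, which gave 8 of the 9. C1qc was found by its accession, because the files carry it under the older name C1qg. The 9 genes are measured by 13 probes, all of which were well above background on all 12 arrays, and none was saturated on any array. All 9 passed the filter on dim probes, as did 20462 genes in all.

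Complement is a cascade of plasma proteins that also has a local supply in the brain. In the classical pathway, C1q, built from the A, B and C chains, binds its target and activates the proteases C1r and C1s, which cleave C4 and C2 and so lead to cleavage of C3, while factor B, the product of Cfb, drives the alternative pathway. The inhibitor encoded by Serping1 blocks C1r and C1s, and CD59 prevents the assembly of the membrane attack complex on host cells. In the brain, C1q comes mainly from microglia, C3 is known from reactive astrocytes, and both are known for tagging synapses for removal by microglia.

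The 4 groups held 3 male rats each, with 1 array per rat. Every rat had received 9 µg of 6-OHDA, a toxin that kills dopamine neurons, in the substantia nigra of the left side, and the group without further treatment is called 6-OHDA. HFS rats had 5 days of continuous stimulation of the subthalamic nucleus (130 Hz, 80 µs pulses, 60 µA) through an electrode on the lesioned side, DOPA rats were injected 2 times a day for 19 days with L-DOPA (25 mg/kg) and the decarboxylase inhibitor benserazide (12.5 mg/kg), and DOPA/HFS rats had both. Among the groups on the arrays, the methods describe an implanted electrode for the stimulated ones only, so stimulation and implantation cannot be told apart. No rat without a lesion was on the arrays. Each of 3 slides carried all 4 groups, and a group always occupied the same position on the slide, so position and treatment cannot be told apart either. Strain and age are not given in the sources used here.

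Signals are given as log2 of the background-corrected intensity after quantile normalization between arrays. A probe's level can be compared between arrays, but not with the level of another probe. Where a gene has a second probe, the brighter one stands for the gene and the other is given beside it. On replicate 3 of the DOPA/HFS group, the scanner software marked 4175 spots as outliers, against 2 to 25 on the other arrays. These spots read 1.27 higher (median, log2) than on the other 11 arrays, and they were left out before normalization. The remaining spots of that array then differed from the other arrays by a median of -0.08. With the outlier spots kept, the remaining spots sat 0.53 lower on that array (median difference of -0.53), so the results for C1s, C2 and C3 that rest on it are also given in that setting. The tissue is a mixture of cells, so a higher level in more cells and a larger number of cells of one type cannot be told apart.

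The promoters of 3 of the 9 genes were in the reference table used here, and they are shown because these genes are the starting C1q chains and the central component C3. Each runs from 250 bases before the annotated start to 50 bases after it (RefSeq, GRCr8, minus strand of the chromosome, written 5′ to 3′ along the gene). Capitals mark matches on either strand to GAGGAA, the core bound by the myeloid factor PU.1, or to TTCNNNGAA, the interferon gamma activated (GAS) element bound by STAT factors. The first covers chr5:154419884-154420183, the second chr5:154407778-154408077 and the third chr9:2201290-2201589.
C1qa: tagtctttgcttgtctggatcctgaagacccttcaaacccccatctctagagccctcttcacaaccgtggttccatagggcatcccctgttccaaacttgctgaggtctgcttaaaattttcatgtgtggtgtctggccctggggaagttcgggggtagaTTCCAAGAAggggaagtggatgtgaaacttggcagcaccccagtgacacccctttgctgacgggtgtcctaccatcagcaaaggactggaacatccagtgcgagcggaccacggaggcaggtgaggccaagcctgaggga
C1qb: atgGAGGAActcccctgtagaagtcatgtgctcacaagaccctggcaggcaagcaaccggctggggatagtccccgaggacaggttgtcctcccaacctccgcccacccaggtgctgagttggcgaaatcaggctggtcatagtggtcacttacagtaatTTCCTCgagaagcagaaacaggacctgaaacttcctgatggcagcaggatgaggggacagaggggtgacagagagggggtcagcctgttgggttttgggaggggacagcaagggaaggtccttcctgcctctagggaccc
C3: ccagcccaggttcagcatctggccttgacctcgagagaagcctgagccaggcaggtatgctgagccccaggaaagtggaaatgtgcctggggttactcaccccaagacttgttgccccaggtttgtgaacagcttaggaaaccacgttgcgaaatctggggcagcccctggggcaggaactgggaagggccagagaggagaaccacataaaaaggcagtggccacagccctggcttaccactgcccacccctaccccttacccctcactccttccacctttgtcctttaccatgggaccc

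The C1qb promoter held GAGGAA at 2 places, -247 to -242 on the strand of the gene and -90 to -85 on the other, counted from the start site. Of the 33469 promoters of this length, 27.6% held that motif on either strand. The C1qa promoter held a single GAS match, at -90 to -82, where 8.87% of all promoters held at least 1. In the C3 window neither motif was found. The core of the interferon-stimulated response element (ISRE), present in 3.92% of promoters, was found in none of these 3 windows. None of the matches overlapped another. In the same reference table, C1qa, C1qc and C1qb follow one another with no gene between them, as do C2 and Cfb, and as do C1r and C1s.

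C1s, the protease of the classical pathway, had the lowest signals on the 6-OHDA arrays, at 7.05, 7.28 and 7.45. On the HFS arrays its log2 signal was 8.02, 7.79 and 7.56. On the DOPA arrays it was 8.09, 7.94 and 7.94, and on the DOPA/HFS arrays 7.94, 8.10 and 8.15. All 9 treated arrays lay above all 3 arrays of the 6-OHDA group. This pattern was found in 0.125% of genes with values on all arrays (23 of 18351). C1s was chosen for its higher signal in the L-DOPA groups, so the share is a description. The group means rose in the order 6-OHDA (7.26 ± 0.20, SD, n = 3), HFS (7.79 ± 0.23), DOPA (7.99 ± 0.09) and DOPA/HFS (8.06 ± 0.11), in which the last 3 groups overlapped with their neighbours.

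The second C1s probe showed the same separation of treated from untreated rats. Its log2 signal was 6.05, 5.96 and 6.09 on the 6-OHDA arrays, and 6.75, 6.63 and 6.23 on the HFS arrays. It was 6.72, 6.70 and 6.49 in DOPA and 7.05, 6.83 and 6.98 in DOPA/HFS. Over the 12 arrays, the signals of both probes had a Pearson correlation of 0.90, given as a description, since the probes share arrays and gene. On this probe every DOPA/HFS array was also above every HFS and every DOPA array, but with outlier spots kept replicate 3 of DOPA/HFS read 6.37, below all DOPA arrays and 2 of the HFS arrays.

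Against 6-OHDA, the log2 signal of C1s was higher by 0.53 in HFS (standard error 0.16, 95% confidence interval 0.18 to 0.88, a 1.44-fold difference). This comparison uses the same 6-OHDA arrays as those that prompted the choice of C1s, so for this gene it is not independent of the choice. In limma's moderated test the Benjamini-Hochberg adjusted p over all genes was 0.998, so the difference did not pass the threshold of 0.1. No gene was called in this comparison (0% of genes tested), while 479 of 20462 genes had an unadjusted p under 0.05. The separation of C1s was seen in 2.79% of genes with values on all 6 arrays, counting genes with every HFS array above every 6-OHDA array. On the second C1s probe, the HFS difference was 0.50 (standard error 0.16).

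In DOPA the log2 difference of C1s from 6-OHDA was 0.73 (standard error 0.16, 1.66-fold), and on the second probe 0.60. In DOPA/HFS it was 0.80 (standard error 0.16, 1.74-fold), and on the second probe 0.92. These are the comparisons that prompted the choice of genes, and no p is given for them. As background, limma called 0.00489% of all genes in DOPA (a single gene of 20462) and 0% in DOPA/HFS, where 565 genes had an unadjusted p under 0.05. Every DOPA array lay above the 6-OHDA arrays for 3.15% of genes, and every DOPA/HFS array for 1.74%. All 3 comparisons with 6-OHDA share the same 6-OHDA arrays. With outlier spots kept, replicate 3 of DOPA/HFS fell from 8.15 to 7.58, still above all 6-OHDA arrays in that setting, and the DOPA/HFS difference was 0.59.

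On its brighter probe C1s had nearly the same level in DOPA/HFS as in DOPA. Both groups had prompted the choice of C1s, so for this gene their comparison is not independent of the choice. DOPA/HFS exceeded DOPA by 0.07 (standard error 0.16, 95% confidence interval -0.28 to 0.42, limma adjusted p = 1), and the arrays overlapped. With outlier spots kept this difference became -0.14, and in the deposited log2 table -0.10, so no direction is given for it. On the second probe the difference was 0.31 (standard error 0.16), and the groups were apart, but overlapped with outlier spots kept. The interaction, the stimulation difference with L-DOPA minus that without it, was -0.46 for C1s (standard error 0.23), -0.66 with outlier spots kept, and -0.19 on the second probe (standard error 0.22). It contains the difference between DOPA and 6-OHDA, for which C1s was chosen, with a negative sign, so it is given with no test.

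**Figure D1:**
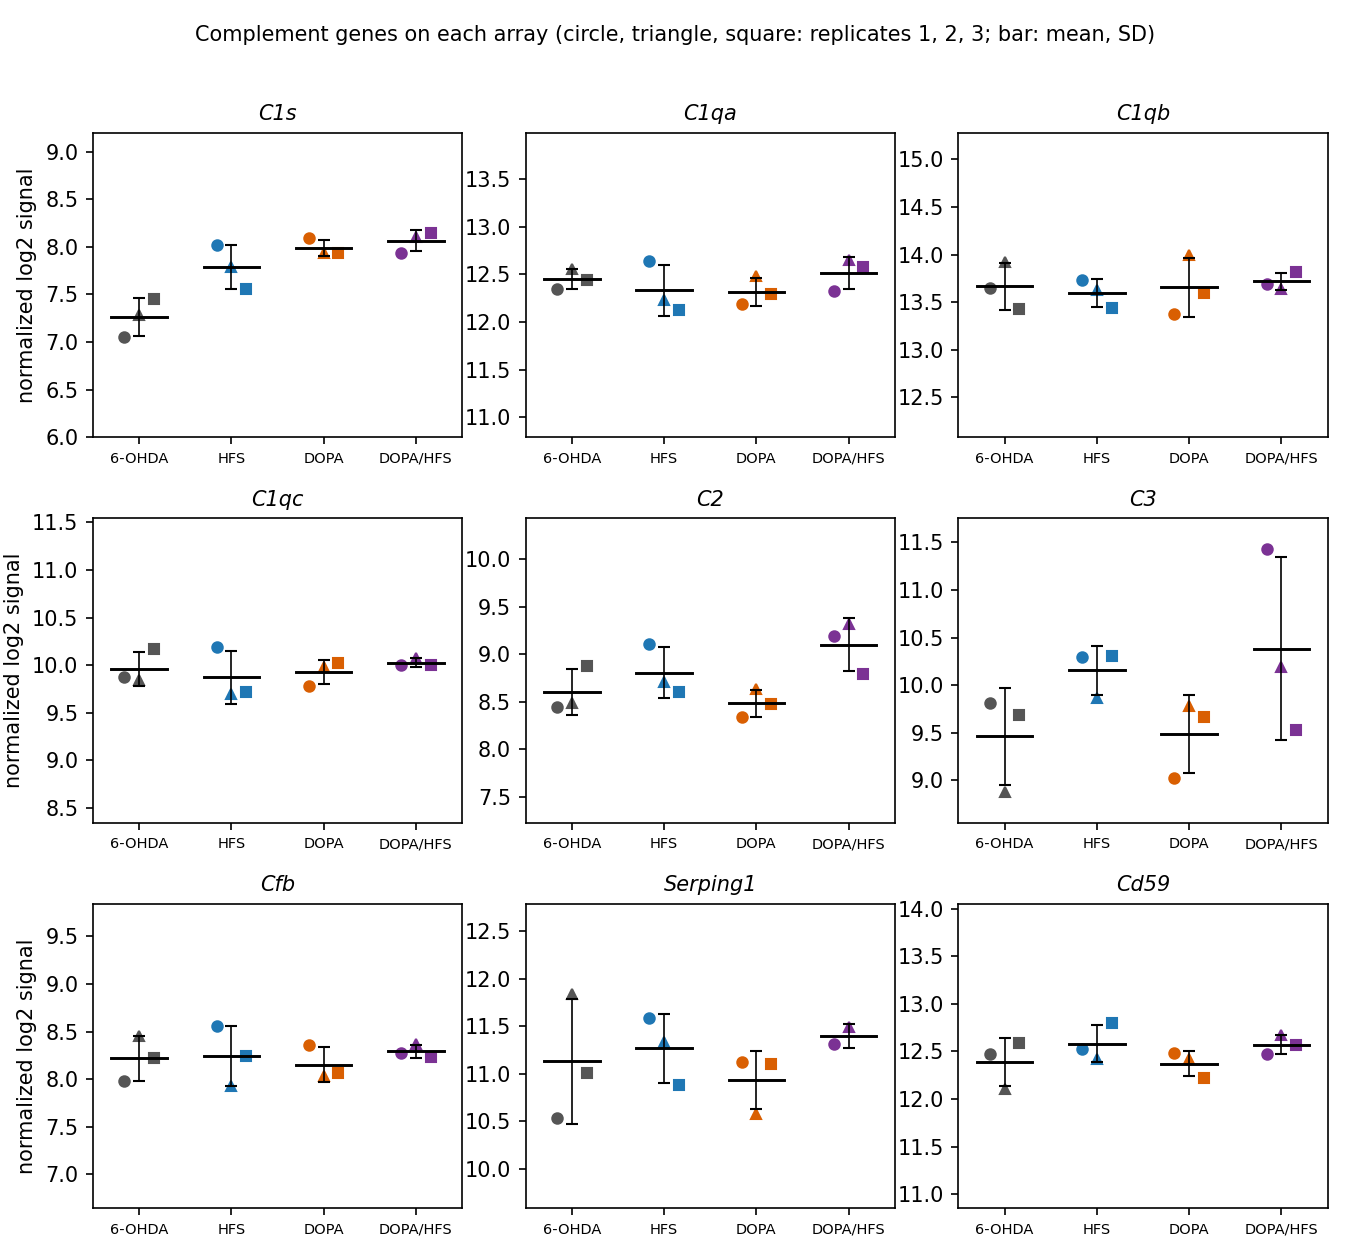
Normalized log2 signal (y axis, each panel spanning the same range of log2 units) of the 9 complement genes in the 4 groups (x axis), with 1 symbol per array and bars for the mean and SD of 3 arrays (2 for Serping1 in DOPA/HFS). For C1s all 9 treated arrays lie above the 3 arrays of 6-OHDA (7.05 to 7.45), as in 0.125% of genes. The C1q chains overlap in all groups, and C3 in DOPA/HFS spreads from 9.53 to 11.43.

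The 3 chains of C1q, the recognition part of the pathway, stayed close to their untreated level in all groups. C1qa had log2 signals of 12.35, 12.56 and 12.44 on the 6-OHDA arrays, and of 12.64, 12.23 and 12.13 on the HFS arrays. Its DOPA arrays gave 12.19, 12.48 and 12.29, and its DOPA/HFS arrays 12.33, 12.65 and 12.58. All 4 groups overlapped. Against 6-OHDA, C1qa differed by -0.12 under stimulation, by -0.13 under L-DOPA and by 0.07 under both treatments, each with a standard error of 0.17.

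C1qb gave 13.65, 13.92 and 13.43 in 6-OHDA and 13.73, 13.63 and 13.44 in HFS. It gave 13.37, 13.99 and 13.60 in DOPA and 13.69, 13.64 and 13.82 in DOPA/HFS. Here too every group overlapped with every other, and the 3 differences from 6-OHDA were -0.07, -0.01 and 0.05, with a standard error of 0.19. C1qc gave 9.87, 9.84 and 10.17 in 6-OHDA, and 10.19, 9.70 and 9.72 in HFS. In DOPA it gave 9.78, 9.98 and 10.02, and in DOPA/HFS 10.00, 10.08 and 10.00, with differences from 6-OHDA of -0.09, -0.03 and 0.07 (standard error 0.17). All groups overlapped again.

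For the effect of stimulation, the 95% confidence intervals of the C1q chains bound what the arrays could have missed. They ran from -0.49 to 0.25 for C1qa, from -0.47 to 0.34 for C1qb and from -0.45 to 0.28 for C1qc. The adjusted p was 0.998 for each in limma. With L-DOPA present, stimulation differed by 0.20 in C1qa (interval -0.17 to 0.57), 0.06 in C1qb (interval -0.35 to 0.47) and 0.10 in C1qc (interval -0.27 to 0.46), with adjusted p = 1 for each. With outlier spots kept the values of C1qb and C1qc were -0.01 and -0.05, so no direction is given for them. No gene was called in DOPA/HFS against DOPA (0%), and 775 genes had an unadjusted p under 0.05. The second probes of C1qa and C1qc gave HFS differences of -0.12 (standard error 0.21) and -0.10 (standard error 0.22), with no group apart from 6-OHDA on either. The 2 probes of C1qa had a Pearson correlation of 0.89 over the 12 arrays and those of C1qc of 0.63.

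C2, the serine protease cleaved by C1s, was highest in rats given both treatments. Its log2 signal was 8.44, 8.49 and 8.88 on the 6-OHDA arrays and 9.11, 8.71 and 8.60 on the HFS arrays. On the DOPA arrays it was 8.34, 8.63 and 8.48, and on the DOPA/HFS arrays 9.19, 9.32 and 8.79. All DOPA/HFS arrays were above all DOPA arrays, a pattern found for 3.76% of genes in this comparison, and C2 alone among the 9 genes had it, Serping1 not being counted because it lacks a value on 1 array. The difference between DOPA/HFS and DOPA was 0.62 (standard error 0.20, 95% confidence interval 0.18 to 1.05, 1.53-fold). The exact two-sided permutation test gave p = 0.1, the smallest that 3 arrays against 3 allow, and limma an unadjusted p of 0.00985 with an adjusted p of 1. With outlier spots kept, replicate 3 of DOPA/HFS fell to 8.25, which is below the DOPA arrays (8.39, 8.68 and 8.52), so the separation rests on how that array was processed, and the difference became 0.42.

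Stimulation without L-DOPA gave C2 a difference of 0.21 (standard error 0.20, limma adjusted p = 0.998), with overlapping arrays. For C2 the interaction came to 0.41 with a standard error of 0.28 (limma unadjusted p = 0.171, adjusted p = 1), 0.21 with outlier spots kept and 0.27 without replicate 3 of 6-OHDA. The interaction was called for no gene (0%), and 406 genes had an unadjusted p under 0.05. The C2 signal of DOPA rats differed from 6-OHDA by -0.12, and that of DOPA/HFS rats by 0.50 (standard error 0.20 each), and the 6-OHDA and DOPA/HFS arrays overlapped at 8.88 and 8.79. The latter difference was 0.30 with outlier spots kept.

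C3, on which all pathways of the cascade converge, had the widest spread of any of the 9 genes in any group, an SD of 0.97 in DOPA/HFS. It gave 9.81, 8.88 and 9.69 on the 6-OHDA arrays and 10.30, 9.86 and 10.31 on the HFS arrays. On the DOPA arrays it gave 9.02, 9.78 and 9.66, and on the DOPA/HFS arrays 11.43, 10.19 and 9.53. The HFS arrays were all above the 6-OHDA arrays, although the lowest of them exceeded the highest 6-OHDA array by a small margin (9.86 against 9.81). In DOPA/HFS 1 rat had the highest value of all 12 and another lay within the range of 6-OHDA.

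The log2 difference of C3 in HFS was 0.70 (standard error 0.43, 95% confidence interval -0.25 to 1.65, 1.62-fold, exact permutation p = 0.1, limma adjusted p = 0.998), and without replicate 2 of 6-OHDA it was 0.41. With L-DOPA present, stimulation differed by 0.90 (standard error 0.43, 95% confidence interval -0.05 to 1.84, adjusted p = 1 in limma), with overlapping arrays. This value was 0.37 without replicate 1 of DOPA/HFS, 1.32 without replicate 3 and 0.73 with outlier spots kept. Neither the HFS difference nor this one passed the threshold. For C3 the interaction came to 0.20 with a standard error of 0.61 (limma adjusted p = 1). The sign of the interaction turned without replicate 1 of DOPA/HFS (-0.33), without replicate 1 of DOPA (-0.04) and in the deposited log2 table (-0.05). It was 0.03 with outlier spots kept. With L-DOPA alone C3 was 0.03 from 6-OHDA, and with both treatments 0.92 (both standard errors were 0.43). The latter was 0.40 without replicate 1 of DOPA/HFS and 0.75 with outlier spots kept.

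Markers of another tissue moved with the HFS group. The 9 choroid plexus markers with values on all arrays summed to 3853 to 6512 (linear signal) on the 6-OHDA arrays and to 10255 to 95672 on the HFS arrays. They summed to 3935 to 20680 in DOPA and 4560 to 5782 in DOPA/HFS, and all 11 markers of the list had a positive HFS difference, with a median of 1.81. Ttr, which defines this tissue, read 16.30, 11.86 and 15.28 on the HFS arrays against 6.23, 6.59 and 5.80 on the 6-OHDA arrays, and Folr1 read 10.34, 7.85 and 9.38 against 6.22, 8.50 and 7.53. On the HFS array with the least of it, replicate 2, C3 read 9.86 and C1s 7.79, while replicate 3 of DOPA, with 20680, read 9.66 and 7.94. In DOPA/HFS, where the choroid plexus sum lay within the range of 6-OHDA, C1s was 8.06 on average and C3 10.38. By the mean log2 signal of the same markers, replicates 1 and 2 of DOPA/HFS (6.75 and 7.22) were above the 6-OHDA arrays (6.16 to 6.58), and Ttr read 8.28 and 9.25 there. The part of this tissue in the values of C3 and C1s was not tested.

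Cfb, which encodes factor B of the alternative pathway, did not separate any pair of groups. It gave 7.98, 8.45 and 8.22 in 6-OHDA, and 8.56, 7.93 and 8.24 in HFS. In DOPA it gave 8.36, 8.03 and 8.06, and in DOPA/HFS 8.27, 8.37 and 8.23. The HFS difference of 0.03 had a 95% confidence interval of -0.39 to 0.44, and it turned to -0.02 both with normexp background correction and in the deposited log2 table, so no direction is given. DOPA and DOPA/HFS differed from 6-OHDA by -0.07 and 0.07 (standard error 0.19 each).

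Serping1, the gene of the C1 inhibitor, was read differently by its 2 probes. The brighter probe gave 10.54, 11.84 and 11.01 in 6-OHDA and 11.59, 11.33 and 10.88 in HFS. It gave 11.12, 10.58 and 11.10 in DOPA, and 11.31 and 11.49 in DOPA/HFS, whose replicate 3 was an outlier spot (10.73 with such spots kept). The second probe gave 7.21, 6.49 and 7.58 in 6-OHDA, and 7.59, 7.72 and 7.69 in HFS. It gave 7.48, 7.63 and 7.34 in DOPA and 7.70, 7.42 and 7.90 in DOPA/HFS. The probes were opposed on replicate 2 of 6-OHDA, which was the highest of all arrays on the brighter probe (11.84) and the lowest on the other (6.49). Their Pearson correlation over the 11 arrays with both values was -0.39.

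The HFS difference of Serping1 came to 0.14 on the brighter probe (standard error 0.32, limma adjusted p = 0.998), and on the second probe 0.57 (standard error 0.24, adjusted p = 0.999), where the HFS and 6-OHDA arrays were apart by the margin between 7.59 and 7.58. With L-DOPA present, stimulation differed by 0.47 on the brighter probe (standard error 0.36, adjusted p = 1) from 2 arrays of DOPA/HFS, by 0.29 without replicate 2 of DOPA and by 0.24 with the outlier spot kept. The mean of both probes gave -0.26 in that comparison. No direction is given for Serping1.

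**Figure D2:**
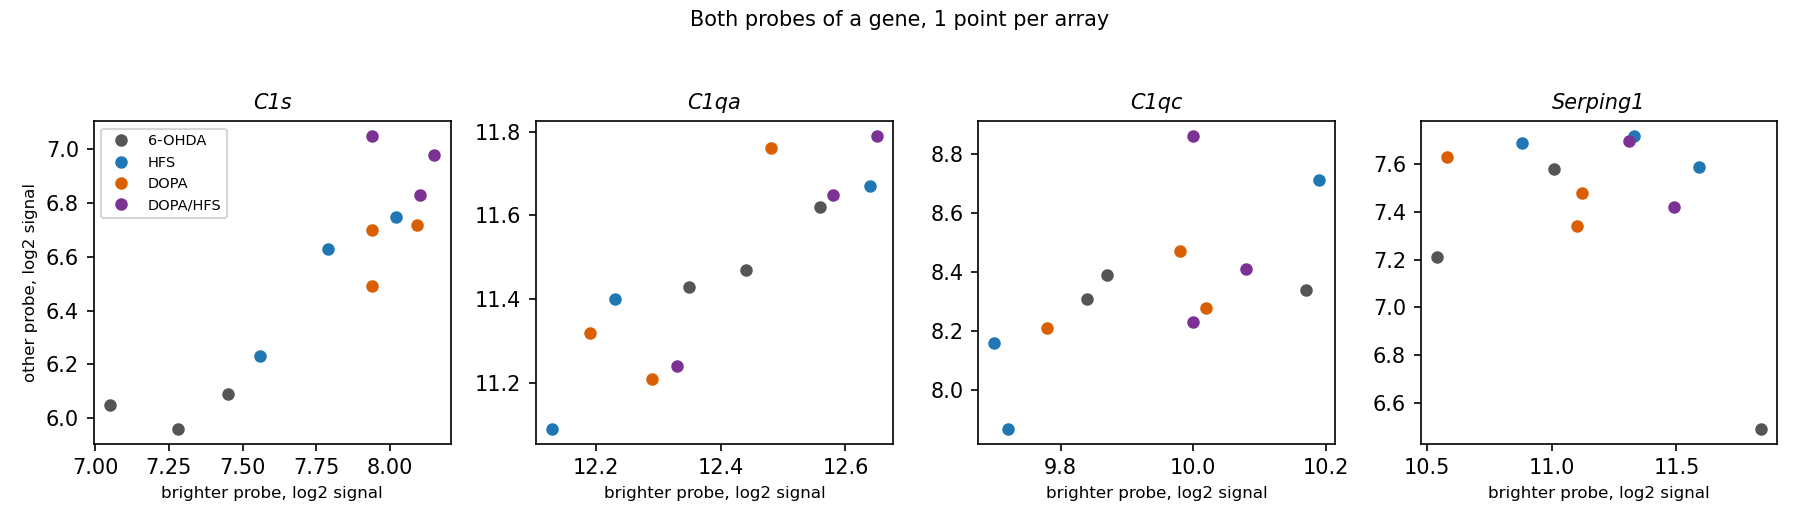
Log2 signal of the brighter probe (x axis) against that of the other probe (y axis) for the 4 genes with a second probe, 1 point per array and a colour per group, with axes fitted to each panel. The points of C1s (Pearson correlation 0.90) and C1qa (0.89) run along a diagonal with the 6-OHDA arrays lowest for C1s, while those of Serping1 (-0.39) do not.

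Cd59, the membrane inhibitor of the terminal complex, was steady. It gave 12.47, 12.11 and 12.59 in 6-OHDA and 12.53, 12.42 and 12.80 in HFS. Its DOPA values were 12.48, 12.42 and 12.22, and its DOPA/HFS values 12.47, 12.67 and 12.57. All groups overlapped. The HFS difference was 0.19 (95% confidence interval -0.17 to 0.55) and the difference of DOPA/HFS from DOPA was 0.20 (interval -0.16 to 0.57), with limma adjusted p of 0.998 and 1.

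Over the 9 genes, none was called in HFS against 6-OHDA or DOPA/HFS against DOPA. None was called in the interaction either, where C1s is left aside. In HFS against 6-OHDA, 6 of the 9 differences were positive with a median of 0.14, beside a median of 0.01 over all genes tested. In DOPA/HFS against DOPA, all 9 were positive with a median of 0.20, beside -0.01 over all genes, of which 48.8% were positive. With outlier spots kept, 5 of the 9 were positive and the median was 0.13, while the median over all genes moved to -0.13 and 30.2% of them were positive. In DOPA against 6-OHDA, 2 of 9 were positive (median -0.03), beside 47.7% of all genes. In DOPA/HFS against 6-OHDA all 9 were (median 0.18), also beside 47.7% of all genes. With outlier spots kept 5 of the 9 were positive in that comparison, while the share over all genes was 28.2% (median -0.14). DOPA/HFS differed from HFS by a median of 0.16 over the 9 genes, with C1s at 0.27 (standard error 0.16), or 0.06 with outlier spots kept. Over all genes limma called 0% there, and 498 genes had an unadjusted p under 0.05.

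**Figure D3:**
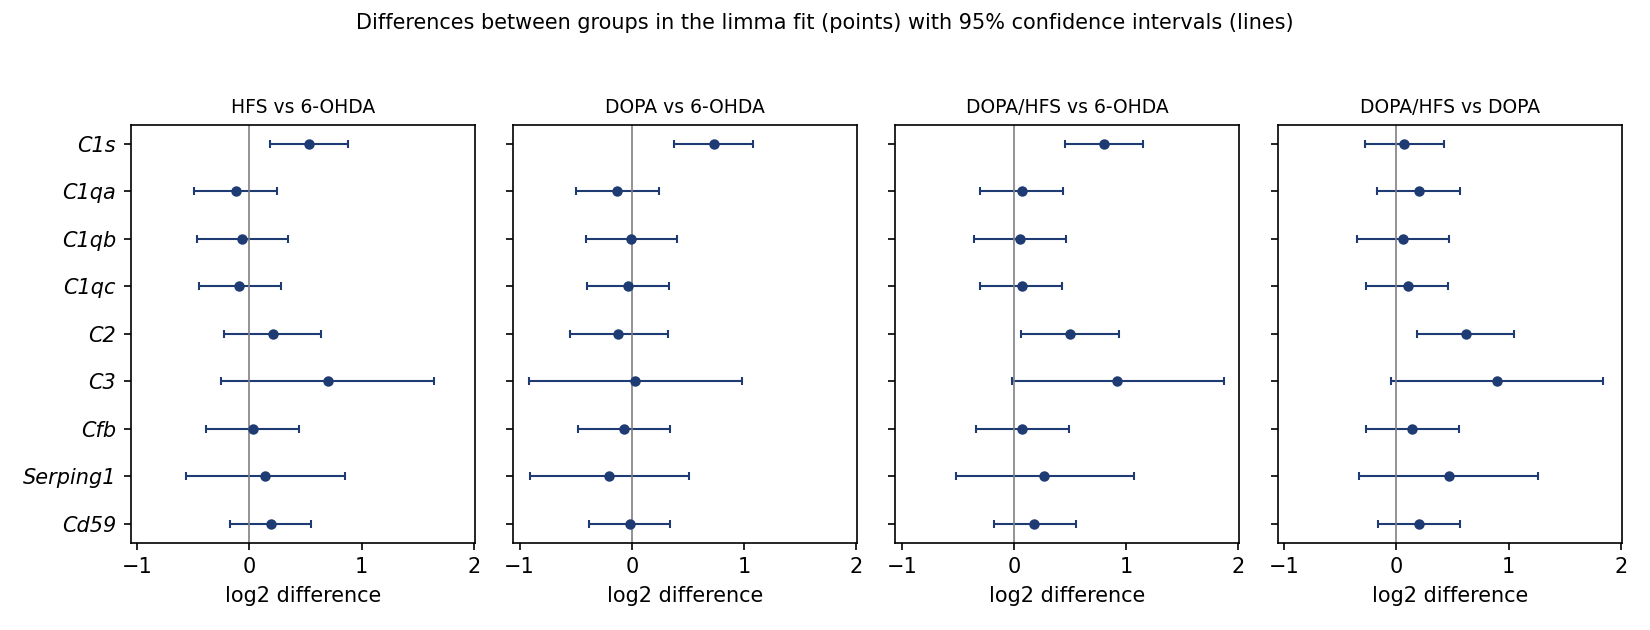
Log2 difference (x axis) of each complement gene (y axis) in 4 comparisons, as points with 95% confidence intervals from the limma fit of 12 arrays. In HFS against 6-OHDA the C1s interval runs from 0.18 to 0.88, in DOPA/HFS against DOPA it spans 0, and those of the C1q chains span 0 in all 4 comparisons. The intervals are not adjusted for the number of genes, and those of the L-DOPA groups against 6-OHDA show error only.

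The variation of the genes between rats was compared in pairs. Among the 36 pairs, 29 had a Pearson correlation above 0 over the arrays, and none passed a Benjamini-Hochberg adjusted permutation p of 0.05. The highest was that of C2 with C3, with r = 0.70 (permutation p = 0.00902, adjusted 0.225) and rho = 0.57 (permutation p = 0.0577, adjusted 0.365) over 12 arrays, and r = 0.57 without the 2 arrays farthest from the median of C2. C1qa and C1qc gave r = 0.69 (permutation p = 0.0155, adjusted 0.225) and rho = 0.65 (permutation p = 0.0265, adjusted 0.365), and r = 0.59 without the 2 farthest arrays. Cfb and Serping1 gave r = 0.69 over 11 arrays (permutation p = 0.0187, adjusted 0.225). Their rho was 0.69 (permutation p = 0.0223, adjusted 0.365), and r was 0.86 without the 2 farthest arrays. The values of this pair rest on the brighter Serping1 probe, whose correlation with the second probe was -0.39. No direction is therefore given for this pair. C1qc and C2 gave r = 0.62 (permutation p = 0.0332, adjusted 0.265). Their rho was 0.59 (permutation p = 0.0466, adjusted 0.365), and r was 0.73 without the 2 farthest arrays. C1qa and C1qb gave r = 0.61 (permutation p = 0.0368, adjusted 0.265) and rho = 0.64 (permutation p = 0.0307, adjusted 0.365), and r = 0.64 without the 2 farthest arrays. C1qb and C1qc gave r = 0.16 (permutation p = 0.61, adjusted 0.914) and rho = 0.13 (permutation p = 0.703, adjusted 0.926), and r = 0.34 without the 2 farthest. With group means removed, the correlations were 0.47 for C2 with C3, 0.66 for C1qa with C1qc, 0.61 for C1qa with C1qb and 0.09 for C1qb with C1qc, as a description. By the same measure they were 0.66 for Cfb with Serping1 and 0.81 for C1qc with C2. C1s and C1qa had r = 0.18 (permutation p = 0.58, adjusted 0.908), rho = 0.32 (permutation p = 0.308, adjusted 0.639) and r = 0.43 without the 2 farthest arrays. For C1s the correlations with group means removed were 0.62 with C1qa, 0.60 with C1qc and -0.01 with C1qb, as a description.

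The genes whose signal over the 12 arrays was most like that of C1s were Kcnj14 (Pearson r = 0.865), Tmem254 (0.864), Dnase2b (0.819), RGD1561490 (0.801) and Grtp1 (0.792), the highest of 18351 genes compared. Kcnj14, a potassium channel gene, read 8.45, 8.24 and 8.58 on the 6-OHDA arrays and 8.61 to 8.87 on the other 9. The mean of the 3 C1q chains was most like Ptpn6 (0.857), a phosphatase gene of blood cells and microglia, then Snapc3 (0.842), the transcript TC565389 (0.842), AA800053 (0.827) and RGD1308557 (0.819). These arrays also share slide and processing, and the correlations are a description.

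The other genes of the pathway were taken from a list of initiators, terminal components, regulators and receptors. Of these, 38 were on the array and 21 passed the filter. None of the 21 was called in any comparison. Their differences ran from -0.77 to 1.30 in HFS, from -0.60 to 1.47 in DOPA and from -0.74 to 1.84 in DOPA/HFS, all against 6-OHDA. Positive differences numbered 13, 9 and 11 of 21 in these comparisons, and the medians were 0.05, -0.06 and 0.02.

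C1r, the protease partner of C1s, gave 7.24, 7.22 and 7.63 in 6-OHDA, and 8.33, 7.60 and 7.63 in HFS. In DOPA it gave 8.20, 7.21 and 8.26, and in DOPA/HFS 7.83, 8.03 and 8.00. Its differences from 6-OHDA were 0.49, 0.53 and 0.59 (standard error 0.29 each), beside 0.53, 0.73 and 0.80 for C1s, but its HFS and DOPA arrays overlapped with 6-OHDA where those of C1s did not.

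The largest differences of the list were those of Itgam, the alpha chain of complement receptor 3, at 1.30, 1.47 and 1.84 (standard error 1.02). They rested on replicate 2 of 6-OHDA, which read 3.58, while the other 6-OHDA arrays read 7.91 and 7.65 and the treated arrays 6.36 to 8.95. C8b, a part of the membrane attack complex, was 0.60 below 6-OHDA with L-DOPA alone (difference of -0.60) and differed by -0.74 with both treatments (standard error 0.27). It read 5.63, 5.62 and 5.39 in 6-OHDA, 5.33, 4.44 and 5.07 in DOPA and 4.73, 4.47 and 5.23 in DOPA/HFS. These signals were low, and C8b was well above background on only 10 of the 12 arrays. C5ar1, a receptor for the C5a fragment, read 6.82, 7.34 and 6.13 in 6-OHDA and 6.29, 6.00 and 5.69 in HFS (difference -0.77, standard error 0.33, limma adjusted p = 0.998).

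**Figure D4:**
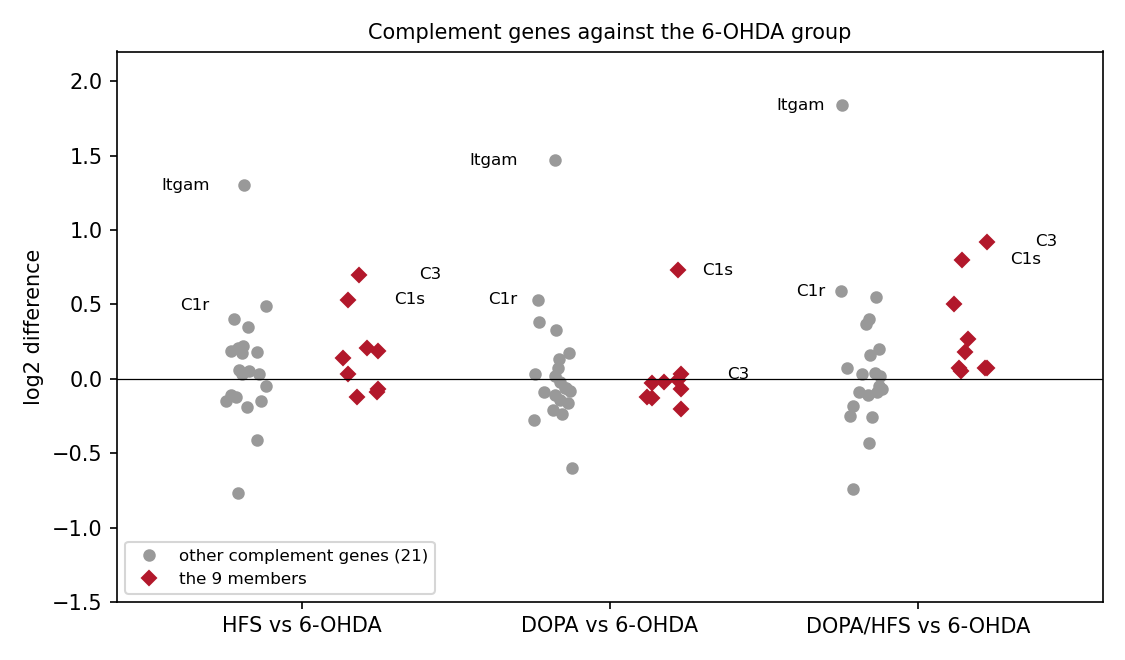
Log2 difference from the 6-OHDA group (y axis) in HFS, DOPA and DOPA/HFS (x axis) for the 9 genes described (diamonds) and the 21 other complement genes tested (circles, spread sideways for legibility). C1s lies at 0.53, 0.73 and 0.80 and C1r at 0.49, 0.53 and 0.59, and Itgam is the topmost circle in each column.

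The tissue was checked with marker lists. Striatal projection neuron markers summed to 235197 to 319819 on all arrays, with Ppp1r1b at 13.19 to 14.12. Microglia markers, of which 12 were tested and none called, summed to 42397 to 49675, and their groups overlapped, with Cx3cr1 at 7.33 to 8.16 and Aif1 at 12.37 to 13.14. Astrocyte markers summed to 65038 to 77098 (Gfap at 8.15 to 9.00, Aqp4 at 8.82 to 9.59), endothelium to 10741 to 15415 (Cldn5 at 12.44 to 13.20, Pecam1 at 3.70 to 5.52) and oligodendrocytes to 190707 to 225506 (Mog at 13.42 to 14.31, Mbp at 14.72 to 16.32). The sums were 8556 to 21124 for leptomeninges and fibroblasts, of which the HFS arrays took 14164 to 21124 and the 6-OHDA arrays 11480 to 13715, with Dcn at 6.98 to 8.16 and Col1a1 at 8.42 to 10.12. Ependyma markers summed to 1878 to 7405 (Foxj1 at 10.43 to 12.60), blood to 579 to 1321 (Hbb at 7.77 to 9.15) and interferon response genes to 5992 to 9354 (Irf7 at 7.11 to 8.99). The 3 major histocompatibility class II genes with values on all arrays summed to 2052 to 2342 in 6-OHDA and 2241 to 2888 in HFS. They summed to 2255 to 2429 in DOPA and 2234 to 2889 in DOPA/HFS. Their mean log2 signal was 7.06 to 7.66 in 6-OHDA and 7.63 to 8.77 in HFS. In DOPA that mean was 8.16 to 8.53, and in DOPA/HFS 8.22 to 8.73. RT1-Da read 5.26, 4.21 and 5.12 in 6-OHDA and 5.33 to 7.01 on the 9 treated arrays, all above 6-OHDA. That pattern, which C1s also had, was found in 0.125% of genes. The study had reported both genes as raised in DOPA and DOPA/HFS on these same arrays, so the share is a description. RT1-Da was well above background on only 10 arrays, and C1s on all 12. The part of RT1-Da in the values of C1s was not tested.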

How the data were processed

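Striatal RNA of 12 rats, 1 array per rat, was analysed from scanner files. The deposited files hold spot intensity from Agilent Feature Extraction 9.1 (named in the submitters' notes), on a linear scale after background subtraction, with no normalization between arrays. The authors also deposited a table of log2 values, which their methods describe as quantile normalized, and it served as an alternative. Its columns were assigned by sample label.

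Each array held 45018 spots. Control spots (1639) and outlier spots were left out, and log2 values were quantile normalized and averaged per probe. Probes well above background on at least a share of 0.4 of arrays were kept (5 of 12), and the brightest probe stood for a gene. Names were updated by accession through RefSeq (GRCr8) for 10735 of 41012 probes. No build is named in the files.

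All arrays were fitted together with limma 3.58.1 in R 4.3.3 (lmFit and eBayes, with jsonlite 2.0.0 and version 1.17.8 of data.table). A call needed a Benjamini-Hochberg adjusted p under 0.1 over all genes and a fold over 1.2 or under 0.8, the limits of the methods, with no fold limit for the interaction. Correlations used 100000 permutations. The fit was tested on simulated data. The number of arrays limits the precision. The labels number the samples of a group, and the methods describe individual samples on separate arrays, taken here as 1 rat each.

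The genes and lists were chosen with earlier results of these data known. The genes named are the 9 members, the 3 other complement genes with the largest difference in each comparison with 6-OHDA, the first 2 genes of each marker list that passed the filter (1 is not reported here), and the 5 genes closest to C1s and to the mean C1q signal. Same-numbered arrays, which share a slide, had correlations of their deviations from -0.29 to 0.48, over 0.1 in 10 of 18 pairs and below 0 in 5. The number was not used as a block in the main analysis. A fit with the block is among the alternatives.

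Alternatives were 75th percentile scaling, normexp (offset 50), the deposited table, no filter or a stricter one (all 3 arrays in at least 1 group), averaging the probes of a gene, the replicate block, fits of the compared arrays only, other thresholds, outlier spots kept and leaving out each array. The alternatives for non-overlapping arrays and for correlations were chosen after seeing the data.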

Additional observations from a re-analysis of the deposited data

How the results depend on the processing

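None of the 9 genes was called in HFS against 6-OHDA or DOPA/HFS against DOPA under any alternative, replicate block included (0 genes in each). The same held for the interaction, where C1s is left aside. No pair of genes passed the adjusted p of 0.05 for correlation in the settings run. The replicate number (slide) as a block changed no sign of any difference, with C1s at 0.53 in HFS against 6-OHDA as without it, but the 1 gene called in DOPA against 6-OHDA was lost with it (0 called). C1s stayed positive in HFS, from 0.36 to 0.64, with a lowest adjusted p of 0.55, and against 6-OHDA from 0.49 to 0.82 in DOPA and from 0.42 to 0.89 in DOPA/HFS, lowest with normexp or the deposited table. The number of genes with every DOPA/HFS array above DOPA, 1 (C2), was 0 in the deposited table and with outlier spots kept, 2 with normexp (C1qa and C2) and 2 with the mean of all probes (C1s and C2). In HFS against 6-OHDA, Cfb was -0.02 with normexp and in the deposited table. In DOPA/HFS against DOPA, the deposited table gave -0.10 for C1s, -0.04 for C1qc and -0.06 for Cfb, outlier spots kept gave -0.14 for C1s, -0.01 for C1qb, -0.05 for C1qc and -0.06 for Cfb, and the mean of all probes gave -0.26 for Serping1. In the interaction, Cd59 was -0.03 with normexp, -0.11 in the deposited table and -0.06 with outlier spots kept, Cfb was -0.04 and -0.09 in the last 2, C3 was -0.05 in the deposited table and Serping1 -0.61 with the mean of all probes. Leaving out each array in turn gave, in HFS against 6-OHDA, -0.18 to 0.06 for C1qb, -0.25 to 0.02 for C1qc, -0.13 to 0.18 for Cfb and -0.16 to 0.49 for Serping1. In DOPA/HFS against DOPA it gave -0.08 to 0.23 for C1qb. In the interaction it gave -0.02 to 0.29 for C1qb, -0.33 to 0.62 for C3, -0.04 to 0.27 for Cfb, -0.02 to 0.63 for Serping1 and -0.09 to 0.15 for Cd59. The cause of these turns was not tested, except that keeping outlier spots lowered replicate 3 of DOPA/HFS. Left out of the fit altogether, that array left all 9 differences between DOPA/HFS and DOPA positive, from 0.01 for C1qb to 1.32 for C3, which was 0.37 without replicate 1 instead. With 3 arrays per group, the standard errors of 0.16 to 0.43 in the comparisons of 2 groups limit what could be seen.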
